A study of Mus musculus with 12 samples.

Results

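The immunoglobulin heavy chain variable (Ighv) segments are the germline pieces from which the antigen-binding part of the antibody heavy chain is built. They were measured here in preparations of lymph node CD4+ T cells, cells that do not make antibody. The table of read counts held 45669 rows, of which 185 named a single Ighv segment. The 140 segments with at least 10 raw counts summed over all 12 libraries are described. Counts of these libraries therefore chose the members, and that they have counts is no finding. Of the other 45 segments, 39 had no count at all. The highest of them, Ighv1-86 and Ighv8-7, had 7 counts each, and the lowest members, Ighv1-13 and Ighv1-57, had 10 each.

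The mice were C57BL6, 12 weeks old, and either homozygous for the Rasgrp1Anaef allele (Rasgrp1Anaef/Rasgrp1Anaef, here Anaef) or wild type (WT/WT, here WT). Rasgrp1 is an exchange factor that activates Ras below the T cell receptor. CD4+ T cells were enriched by magnetic beads that bind the other cells, so cells that escaped the beads remain in the preparation. Total RNA was sequenced from 20000 cells per library, in 4 Anaef libraries (replicates 5 to 8) and 4 WT libraries (replicates 1 to 4). The far larger number of cells that remained was treated with cycloheximide and nuclease, and the mRNA stretches that ribosomes protect (ribosome-protected fragments, RPF) were sequenced in 2 Anaef pools (3B and 4B) and 2 WT pools (1B and 2B). Each pool joined 2 samples, and the labels do not say which. They also do not say whether libraries came from separate animals, and the p-values therefore reflect the spread among these libraries alone. Libraries held 18580747 to 39467754 counts in Anaef total RNA and 15326842 to 40046317 in WT total RNA. The RPF pools held 2868943 to 3464868 counts in Anaef and 4044330 to 7009342 in WT. WT total RNA replicates 1 and 2 stood apart with 49201 and 127502 Ighv counts, against 1701 to 5210 in the Anaef libraries and 2494 and 10817 in WT replicates 3 and 4. Some of the results that rest on replicates 1 and 2 are also given without them, and the others only with them.

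In a developing B cell, recombination joins 1 V segment to a D and a J segment, and the joined exon is transcribed together with a constant region. The V segment encodes most of the variable domain, including the first pair of antigen-contacting loops. A V segment in use is thus transcribed in the B cells and plasma cells of the clones that chose it, and plasma cells hold the largest amounts of this mRNA. Segments are grouped by sequence into families, given by the number that follows Ighv in the symbol. The 140 members fell into 15 families, and family 1, with 74 members, was the largest. All lie on chromosome 12 between 113572927 and 116000461 (GRCm38), 139 of them on the minus strand. By the GENCODE annotation 112 were coding and 28 were pseudogenes.

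The coding ends of the 8 segments that had the most counts in at least 1 library are shown, since the leading segment differed between libraries. Each line gives the last 96 coding bases of the segment, 5′ to 3′, from the GENCODE transcripts (GRCm38, minus strand). Capitals mark the codons for tyrosine, tyrosine or phenylalanine, and cysteine that close the third framework region. This motif was found in 107 of the 111 coding ends available. The few bases after it begin the third antigen-contacting loop, which the D and J segments complete.

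Ighv1-81, chr12:115920279-115920374: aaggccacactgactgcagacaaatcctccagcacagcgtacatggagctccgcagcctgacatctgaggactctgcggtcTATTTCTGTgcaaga
Ighv1-80, chr12:115912344-115912439: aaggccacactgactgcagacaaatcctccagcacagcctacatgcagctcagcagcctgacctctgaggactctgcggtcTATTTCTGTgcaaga
Ighv1-72, chr12:115757984-115758079: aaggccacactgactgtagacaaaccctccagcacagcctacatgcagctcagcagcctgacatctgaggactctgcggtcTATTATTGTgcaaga
Ighv1-52, chr12:115145487-115145582: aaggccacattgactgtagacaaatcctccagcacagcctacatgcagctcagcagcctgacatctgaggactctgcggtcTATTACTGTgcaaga
Ighv1-26, chr12:114788372-114788467: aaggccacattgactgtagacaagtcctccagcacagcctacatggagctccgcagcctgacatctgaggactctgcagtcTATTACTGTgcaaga
Ighv2-2, chr12:113588267-113588362: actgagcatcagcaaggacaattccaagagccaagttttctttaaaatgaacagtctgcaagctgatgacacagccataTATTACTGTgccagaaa
Ighv14-2, chr12:113994469-113994564: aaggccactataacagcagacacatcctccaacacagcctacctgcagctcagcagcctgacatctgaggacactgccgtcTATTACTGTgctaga
Ighv7-3, chr12:114153180-114153275: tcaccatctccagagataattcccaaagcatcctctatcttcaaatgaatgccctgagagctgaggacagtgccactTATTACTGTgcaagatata

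The 5 family 1 ends shown are close to each other. Ighv1-81 differed from Ighv1-80 at 4 of 96 bases and from Ighv1-72 at 7, and from Ighv14-2 of family 14 at 14. Over the whole coding sequence Ighv1-81 had 85.47% identity with Ighv1-72 and 60.83% with Ighv2-2. Such likeness decides how well a short read can be placed. Of the 140 members, 118 shared at least 1 stretch of 50 bases, the read length of the total RNA libraries, with another of the 185 Ighv segments. All 478 sharing pairs among the members stood within a family. In the median member 20.8% of 50-base windows occurred in another of these segments, and 47.3% of 28-base windows, about the length of a footprint. Values of single segments are therefore uncertain where a close copy exists, and families are read more firmly than segments.

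Counts of the closest pair, Ighv1-62-2 and Ighv1-71, could not be told apart. Their coding sequences differ in 1 of 359 aligned columns, and their last 96 bases are the same. Ighv1-62-2 had 0, 3, 1 and 0 counts in Anaef total RNA replicates 5 to 8, and Ighv1-71 had the same 4 values. In WT replicates 1 to 4 Ighv1-62-2 had 5, 1146, 0 and 211 counts and Ighv1-71 had 5, 1145, 0 and 208. Such pairs do not give independent values. The other pairs in which at least 50% of the windows were shared were Ighv1-72 with Ighv1-62-3, Ighv1-52 with Ighv1-61, and Ighv11-1 with Ighv11-2. The pseudogenes Ighv8-10 and Ighv8-14 also had equal counts in every library, 49 in all for each.

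The summed level of the members was lower in Anaef than in WT in the mean of both assays, and in total RNA the groups overlapped. Levels are counts at a common library size (CPM), with sizes scaled by TMM (trimmed mean of M values), set within each assay. In total RNA the sums were 275, 58.6, 69.6 and 94.4 CPM in Anaef replicates 5 to 8, against 1311, 2775, 197 and 433 CPM in WT replicates 1 to 4. Anaef replicate 5 lay above WT replicate 3, and WT replicates 1 and 2 stood apart from all others. The mean was 124.4 ± 101.6 CPM in Anaef and 1179 ± 1167 CPM in WT (SD, n = 4 each), and the WT libraries alone spanned a 14.1-fold range. In RPF the sums were 6040 and 1687 CPM in the Anaef pools 3B and 4B, and 13150 and 6869 CPM in the WT pools 1B and 2B. Both Anaef pools lay below both WT pools, at an Anaef to WT ratio of means of 0.386, while the Anaef pools themselves differed 3.58-fold. No test is given for a sum over the members.

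As shares of all counts the members were rare. In total RNA they took 0.00507% (95% exact binomial interval 0.00483% to 0.00532%) of the counts in the lowest Anaef library and 0.0280% (0.0273% to 0.0288%) in the highest. The lowest and highest WT shares were 0.0163% (0.0156% to 0.0169%) and 0.318% (0.317% to 0.320%). In RPF the shares were 0.608% and 0.169% in Anaef and 1.27% and 0.699% in WT. These intervals hold counting error alone, because several reads can come from 1 molecule. The shares were higher in RPF than in total RNA in each group, but they are not on the same scale. Of 5283 rows without a coding annotation and with at least 100 total RNA counts, 5157 had no RPF count. The totals of the assays thus hold unlike sets of rows. In bulk samples fewer antibody-making cells and less RNA per cell cannot be told apart.

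**Figure D1:**
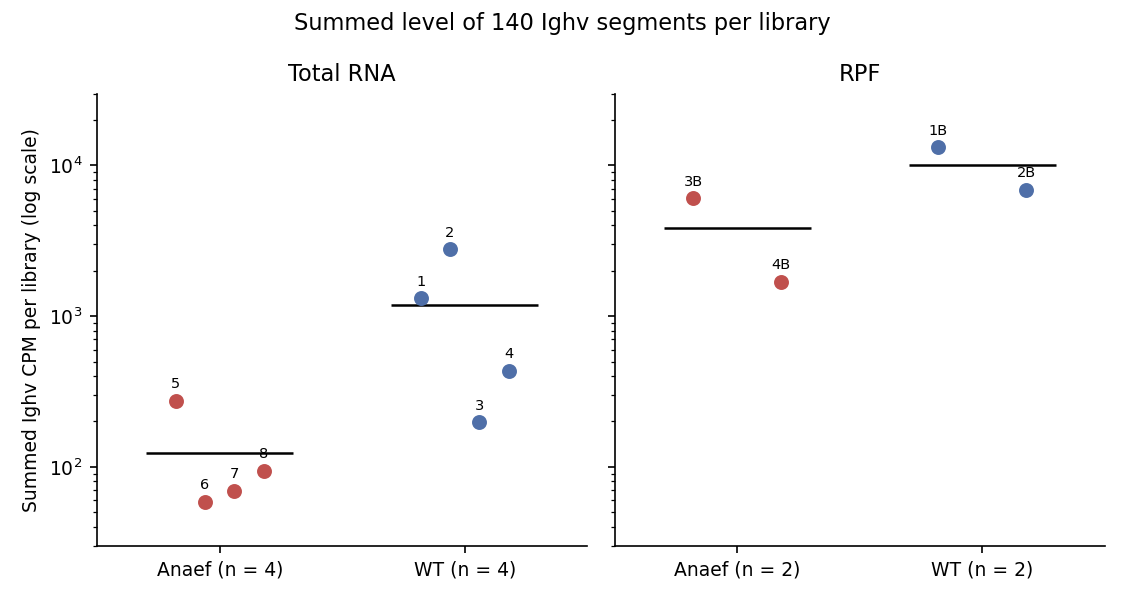
Summed CPM of the 140 Ighv segments in each library on a log axis, in total RNA (left panel) and RPF (right panel), with Anaef left of WT, each point numbered by its replicate and the black line at the group mean. In total RNA Anaef replicate 5 at 275 CPM lies above WT replicate 3 at 197 CPM, and WT replicates 1 and 2 stand at 1311 and 2775 CPM, while in RPF both Anaef pools lie below both WT pools.

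Markers of antibody-making cells were low beside T cell genes and moved in part with the segments. The 12 B cell markers summed to 16.7 to 48.1 CPM in Anaef total RNA and 42.5 to 81.8 CPM in WT total RNA, with overlap. By edgeR's test all 11 of them tested in total RNA were lower in Anaef, at a median log2 fold change of -1.53. Of these 5 had an unadjusted p under 0.05, against 2.89% of all genes tested. In RPF all 5 tested were lower (median -1.30), 4 of them at that level, against 6.93% of all genes. In neither assay was any called, against 0.0224% and 0% of all genes. None of the 12 was at 0 over the total RNA libraries of either genotype, and Cd22 was at 0 in all RPF pools. The 9 plasma cell markers, among them Xbp1, Prdm1 and Irf4 that T cells also express, summed to 126 to 162 CPM in Anaef and 128 to 331 CPM in WT, with Tnfrsf17 at 1 count over the Anaef and 13 over the WT total RNA libraries. The 10 CD4 T cell markers summed to 3927 to 5570 CPM in Anaef and 3709 to 4076 CPM in WT, and were high in every library. WT replicate 3, with the lowest Ighv sum of its group, had the highest B cell sum (81.8 CPM). WT replicate 2, with the highest Ighv sum, had the highest plasma cell sum (331 CPM). Yet Anaef replicate 5, with the highest Ighv sum of its group, had the lowest plasma cell sum in total RNA (126 CPM). WT replicate 4, with an Ighv sum of 433 CPM, had a lower plasma cell sum (128 CPM) than WT replicate 3 (148 CPM), with an Ighv sum of 197 CPM. In RPF the plasma cell markers summed to 617 and 259 CPM in Anaef 3B and 4B and to 1813 and 916 CPM in WT 1B and 2B, the same order as the Ighv sums. B cell markers summed to 22.7 and 40.1 CPM in Anaef 3B and 4B, the other way round, and to 93.0 and 51.5 CPM in WT 1B and 2B. The 5 myeloid markers summed to 12.2 to 15.7 CPM in Anaef total RNA and 18.0 to 23.0 CPM in WT total RNA, without overlap, while those of CD8 T cells and NK cells overlapped. The part of these cells in the differences of the segments was not tested.

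Family usage, the share of a library's Ighv counts that falls to each family, varied widely between total RNA libraries and less between RPF pools. Family 1 held 80.5%, 65.2%, 28.5% and 27.4% of the Ighv counts in Anaef replicates 5 to 8, and 57.3%, 60.1%, 73.1% and 52.8% in WT replicates 1 to 4. Anaef replicates 7 and 8 were thus below every WT library and replicate 5 above every one. In RPF family 1 held 80.6% and 75.2% in Anaef and 75.8% and 81.9% in WT. The spread in the Anaef total RNA libraries was 26.7 percentage points (SD, n = 4) and in the WT libraries 8.72 points.

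The counts that family 1 lacked in Anaef replicates 7 and 8 stood in other families in each. Family 14 held 1.82%, 4.12%, 28.5% and 23.4% in Anaef replicates 5 to 8, against 2.998%, 1.04%, 8.06% and 1.47% in WT replicates 1 to 4. Family 2 held 1.92%, 0.470%, 19.1% and 3.35% in Anaef, against 12.2%, 15.4%, 0.682% and 34.0% in WT. WT replicate 4 and Anaef replicate 7 were the libraries with the largest family 2 shares. Family 7 reached 18.97% in Anaef replicate 8 and at most 1.70% in any WT total RNA library. Family 4 reached 13.8% in Anaef replicate 6, where Ighv4-1 had 199 of the 1701 Ighv counts, and at most 0.129% in WT. In the RPF pools families 14, 2, 7 and 4 held at most 4.45%, 4.20%, 0.731% and 0.280%.

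**Figure D2:**
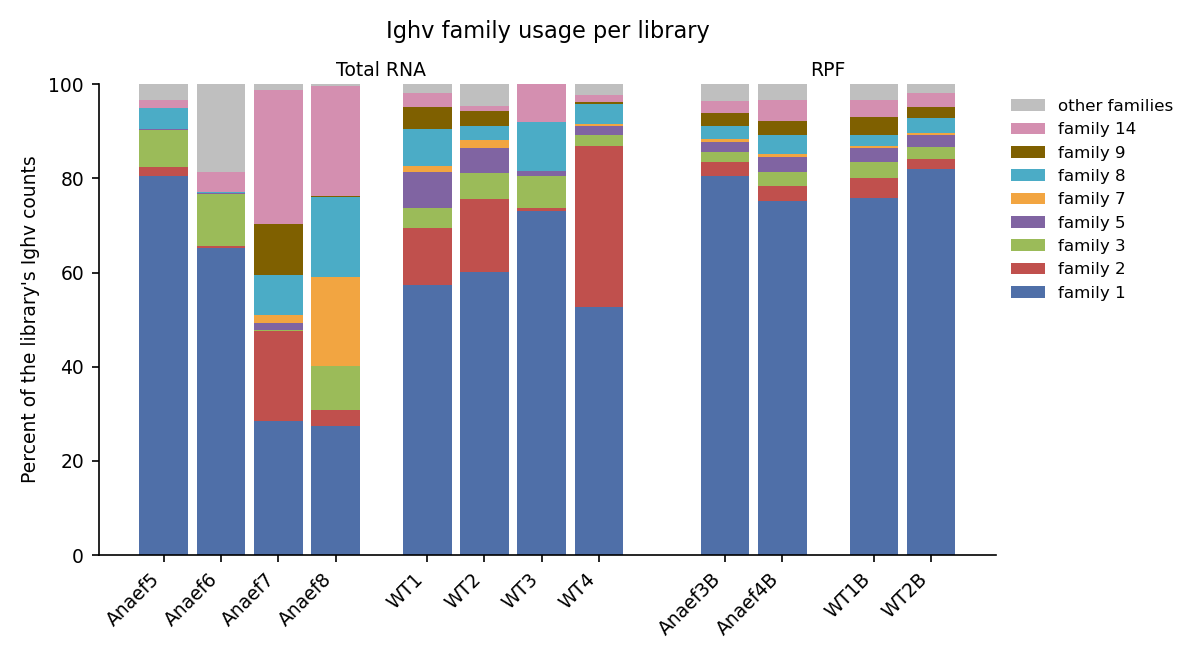
Share of each library's Ighv counts held by each family, as stacked bars for the 8 total RNA libraries and the 4 RPF pools, with Anaef left of WT in each assay. Family 1 ranges from 27.4% to 80.5% in Anaef total RNA and from 52.8% to 73.1% in WT total RNA, against 75.2% to 81.9% in the RPF pools.

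Small families behaved unevenly as well. Family 11, in the mouse known from B-1 cells that recognise phosphatidylcholine, was nearly absent from total RNA. Its 2 members, Ighv11-1 and Ighv11-2, had no count in the 4 Anaef total RNA libraries and 1 count in the WT libraries together. In RPF they had 109 and 33 counts in Anaef 3B and 4B and 152 and 17 in WT 1B and 2B, which was 0.518% and 0.683% of the Ighv footprints in Anaef and 0.171% and 0.0601% in WT. Both Anaef shares lay above both WT shares, as they also did in families 4, 6, 7 and 15, and in none of the 15 families below. By CPM, both Anaef pools lay above both WT pools in 22.3% of all genes tested in RPF, and below in 22.5%. Counts in Anaef 3B and 4B and WT 1B and 2B were 59, 13, 115 and 69 for family 4. For family 15 they were 16, 2, 31 and 10. No test is given for these shares. In total RNA the shares of the genotypes overlapped in all 15 families. Family 13 consisted of Ighv13-2, which had 1, 1, 3 and 0 counts in Anaef total RNA and 122, 4483, 0 and 0 in WT. Nearly all of its counts thus came from WT replicate 2, and in RPF 677 of its 707 counts came from WT 1B. Family 12, also known from B-1 cells, had 19 counts in all.

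Few segments filled a total RNA library, and more so in Anaef. The 5 leading segments held 43.3%, 50.6%, 53.2% and 57.4% of the Ighv counts in Anaef replicates 5 to 8, against 24.4%, 23.3%, 33.8% and 42.9% in WT replicates 1 to 4. Every Anaef library was above every WT library in this share. The effective number of segments (inverse Simpson, 1 over the sum of the squared shares) was 17.4, 16.3, 12.2 and 12.2 in Anaef and 38.9, 40.9, 25.7 and 18.1 in WT. In RPF it was 54.2 and 60.0 in Anaef and 57.4 and 53.6 in WT, above all total RNA libraries of either genotype. Since the number of Ighv counts differed between libraries, the number of detected segments was also computed for 1701 counts, the smallest library. It was then 62.3, 72.0, 86.1 and 59.6 in Anaef and 90.5, 96.2, 72.1 and 86.9 in WT, so that the groups overlapped in this number. The 4 RPF pools lay at 98.9 to 103.0.

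**Figure D3:**
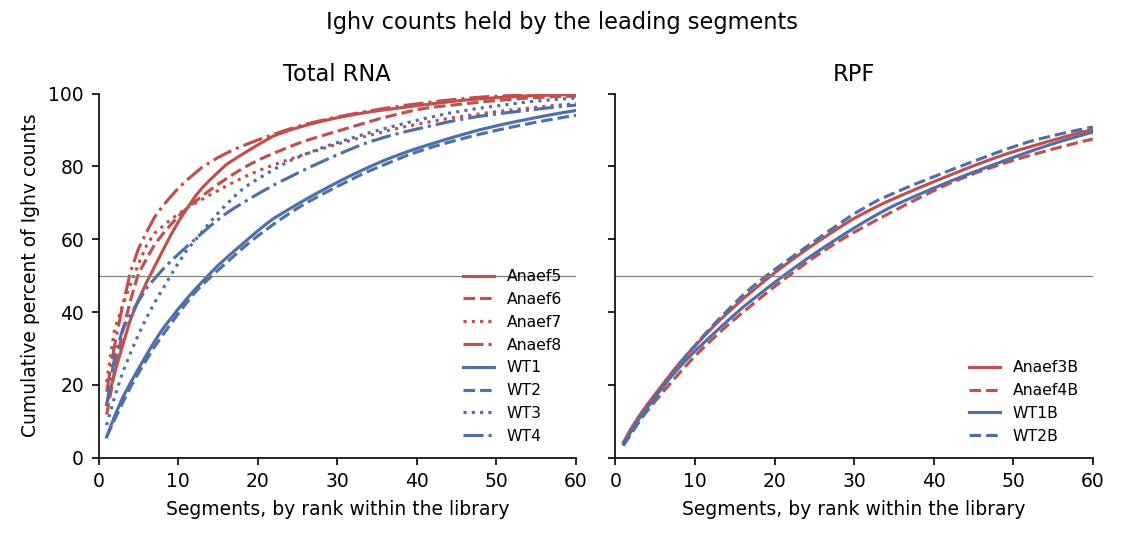
Cumulative share of the Ighv counts of each library against the rank of the segment in that library, in total RNA (left panel) and RPF (right panel), Anaef in red and WT in blue, with a grey line at 50%. Between 4 and 7 segments reach 50% in the Anaef total RNA libraries, between 8 and 15 in the WT total RNA libraries, and between 19 and 22 in the RPF pools.

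The leading segment was a different one in nearly every total RNA library. Ighv1-52 led Anaef replicate 5 with 761 counts, 14.6% of its Ighv counts, and had 0, 20 and 26 counts in Anaef replicates 6 to 8. Ighv14-2 led replicate 7 with 632 counts (20.8%) and came next in replicate 8 with 421 (12.7%). Ighv7-3 led replicate 8 with 600 counts (18.1%), against 2, 1 and 45 in replicates 5 to 7. Ighv1-81 led Anaef replicate 6 with 202 counts (11.9%) and also led WT replicate 4 with 1561 (14.4%). In WT, Ighv1-72 led replicate 1 with 2819 counts (5.73%), Ighv2-2 replicate 2 with 7398 (5.80%), and Ighv1-80 replicate 3 with 224 (8.98%).

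The lack of a common leader held for the first 5 places. In Anaef total RNA the 20 places were filled by 17 different segments and in WT by 15, and no segment stood in the first 5 of all libraries of a group. In RPF 6 segments filled the 10 places in each genotype. Ighv1-53, Ighv1-55 and Ighv1-81 were among the first 5 in all 4 pools, joined by Ighv1-26 in both Anaef pools and by Ighv1-72 in both WT pools. Of the 140 members, 35 had counts in every Anaef total RNA library and 69 in every WT one, while 106 were seen in both Anaef pools and 111 in both WT pools.

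**Figure D4:**
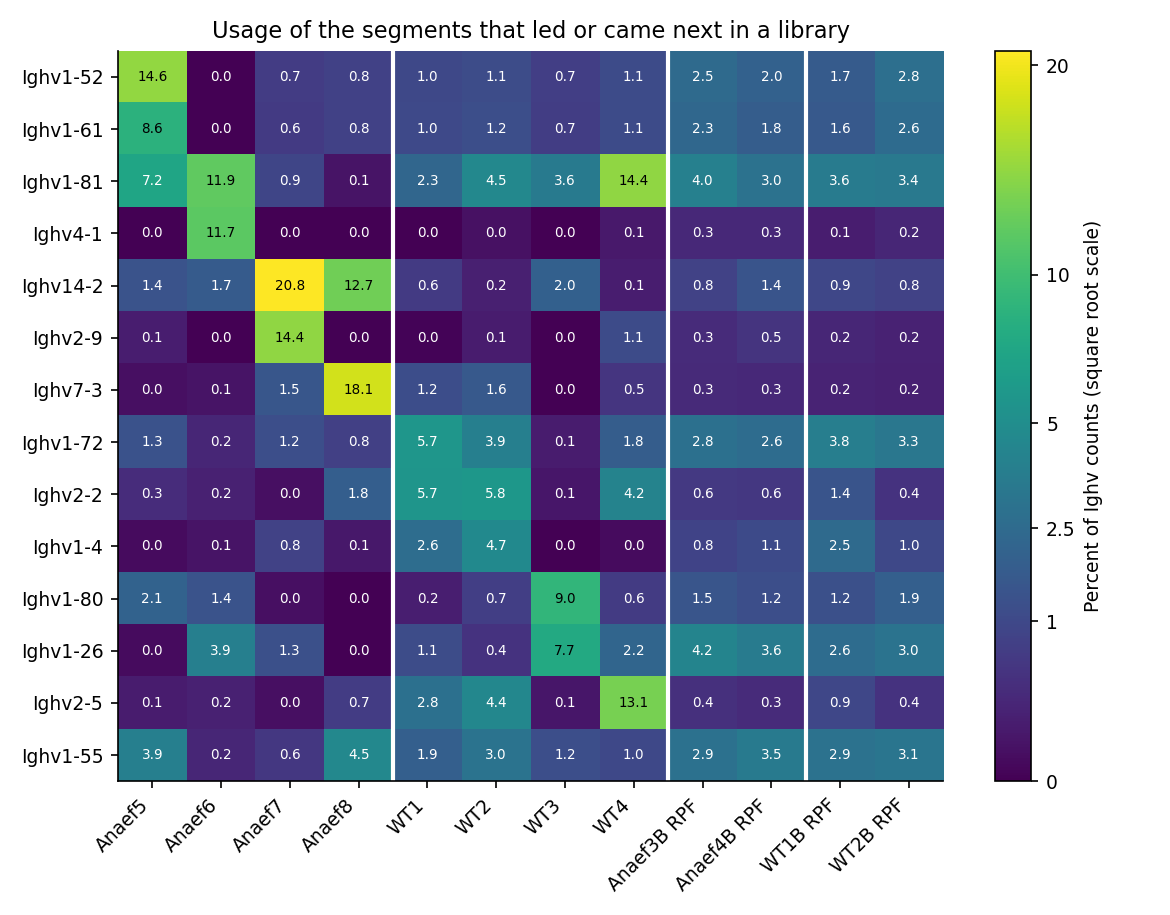
Share of the library's Ighv counts, in percent and coloured on a square root scale, for each segment that had the most or the next most counts in at least 1 library (rows), over the 12 libraries (columns, Anaef left of WT within total RNA and within RPF). Ighv14-2 stands at 20.8% and 12.7% in Anaef replicates 7 and 8 and Ighv7-3 at 18.1% in Anaef replicate 8, while in the RPF pools no segment exceeds 4.23%.

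The overlap of usage between libraries, the sum over segments of the smaller of the 2 shares, gave the same picture for whole profiles. Between Anaef total RNA libraries it was 18.0% to 35.4% (median 23.9% over 6 pairs), between WT total RNA libraries 31.3% to 68.0% (median 40.2% over 6 pairs), and between Anaef and WT total RNA libraries 21.8% to 41.7% (median 33.2% over 16 pairs). Anaef libraries thus overlapped less with each other than with WT libraries in the median. The highest value in total RNA was between WT replicates 1 and 2. In RPF the Anaef pools overlapped by 88.6% and the WT pools by 86.4%, and Anaef and WT pools by 85.8% to 90.7%. RPF and total RNA libraries overlapped by 26.9% to 65.2%. The total RNA libraries and the RPF pools differed in the number of cells, in pooling and in library kit, and the part of each was not tested.

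Single libraries also set the totals of most segments in total RNA, and of fewer in RPF. Of the 122 members with at least 10 total RNA counts, 79 were highest in WT replicate 2 and 23 in WT replicate 1. In 82 of them 1 library held over 50% of the summed CPM, and in 56 of these it was WT replicate 2. In RPF 97 of 109 members were highest in WT 1B. There 1 pool held over 50% of the summed CPM in 35 of the 109, and in 34 of these it was WT 1B. No share over all genes is given for these counts.

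In total RNA no segment differed between Anaef and WT at an adjusted p under 0.05 by edgeR's quasi-likelihood test, fitted on the 8 libraries. Of the 140 members 75 passed the filter on low counts and were tested, and 0 were called, against 0.0224% of all 17876 genes tested. Without adjustment 51 had p under 0.05 and a lower level in Anaef, 68.0% of the members tested against 2.89% of all genes, and 0 a higher level, against 2.73%. In 18 of the 75 every Anaef library lay below every WT library, against 2.01% of all genes tested, and in 0 above, against 1.58%. The median log2 fold change of Anaef over WT was -3.35 over the 75 and 0.01 over all genes tested. DESeq2 called 15 members, all lower in Anaef, against 0.675% of all genes, and limma-voom called 0, against 0.0112%. Without Anaef replicate 6 edgeR called Ighv1-19, against 0.0108% of all genes tested, and without WT replicate 3 it called Ighv2-5, against 0.0162%. The filter needs 0.292 CPM in 4 libraries, which 50 of the 75 reached in every WT library and 3 in every Anaef library. The tested members thus lean to those high in WT. Of the 75, 4 reached it in no Anaef library, and for these the filter itself set the lower level in Anaef. Over all 140 members the mean CPM was lower in Anaef for 124, higher for 8, and 0 in both for 8.

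The segments with the smallest p were low in all Anaef libraries. Ighv1-19 had 0.05, 0.83, 0.14 and 0.17 CPM in Anaef replicates 5 to 8, against 6.02, 12.9, 4.35 and 8.17 CPM in WT replicates 1 to 4. The groups did not overlap, and the log2 fold change was -4.70 (SE 0.76, adjusted p = 0.145 by edgeR). Ighv1-18 likewise had 0.11, 1.07, 0.30 and 0.26 CPM in Anaef and 4.26, 6.14, 5.22 and 2.88 CPM in WT, or -3.40 as a log2 fold change (SE 0.66, adjusted p = 0.291 by edgeR). These segments were more even over the WT libraries than most. The fitted fold change remained at -4.37 for Ighv1-19 and -3.20 for Ighv1-18 when WT replicates 1 and 2 were both left out.

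Others with small p rested on very few Anaef reads or on single WT libraries. Ighv1-9 had 3, 0, 3 and 1 counts in Anaef and 248, 2590, 83 and 28 in WT, with no overlap (log2 fold change -8.19, SE 1.39, adjusted p = 0.179 by edgeR). Ighv5-17 had 0, 0, 5 and 0 counts in Anaef and 931, 421, 17 and 15 in WT (-7.80, SE 1.47, adjusted p = 0.289). Ighv1-9 and Ighv5-17 reached the filter in no Anaef library, at most 0.16 and 0.11 CPM. They were tested through their WT levels alone, so their direction is no separate support for a lower level. Ighv2-5 had 6, 3, 1 and 22 counts in Anaef and 1400, 5643, 2 and 1419 in WT, where WT replicate 3 lay within the Anaef range (-7.69, SE 1.44, adjusted p = 0.289). Ighv5-12 had no count in Anaef and 649 in WT, 330 and 316 of them in replicates 1 and 2. It did not pass the filter.

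The segments with the most counts overall showed large differences in the mean and wide spread. Ighv1-81 had 19.8, 6.95, 0.64 and 0.06 CPM in Anaef and 29.9, 126, 7.04 and 62.5 CPM in WT, so that Anaef replicate 5 lay above WT replicate 3 (-3.07, SE 1.25, adjusted p = 0.848 by edgeR). Ighv1-72 had 3.64, 0.14, 0.82 and 0.71 CPM in Anaef and 75.1, 108, 0.24 and 7.77 CPM in WT (-5.25, SE 1.42, adjusted p = 0.594). Ighv2-2 had 0.95, 0.10, 0.02 and 1.74 CPM in Anaef and 74.6, 161, 0.16 and 18.1 CPM in WT (-6.53, SE 1.55, adjusted p = 0.417). In both, WT replicate 3 was as low as the Anaef libraries. The other most abundant segments tested, Ighv1-53, Ighv1-55, Ighv1-62-3, Ighv1-64, Ighv2-4 and Ighv3-6, had fold changes between -6.999 and -1.921, with adjusted p between 0.302 and 0.950 by edgeR. Ighv1-4 and Ighv1-7, counted almost only in WT replicates 1 and 2, did not pass the filter.

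Only 2 tested segments had a fitted level above WT, and each rested on 1 or 2 Anaef libraries. Ighv14-2 had 3.80, 1.00, 14.5 and 12.0 CPM in Anaef and 7.91, 4.42, 3.88 and 0.56 CPM in WT, with overlap (0.90, SE 0.82, adjusted p = 0.969 by edgeR). Ighv2-9 had 0.37, 0, 10.0 and 0 CPM in Anaef and 0.03, 3.24, 0 and 4.69 CPM in WT (0.39, SE 1.79, adjusted p = 0.989). Its direction turned to -4.18 without Anaef replicate 7. Ighv1-52, at 40.2 CPM in Anaef replicate 5 and at most 0.74 CPM in the other Anaef libraries, against 12.7, 31.2, 1.42 and 4.65 CPM in WT, had a fold change of -0.30 (SE 1.52, adjusted p = 0.989), which was -4.92 without Anaef replicate 5.

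WT replicates 1 and 2 carried much of the total RNA difference. Without WT replicate 2 the number of members lower at an unadjusted p under 0.05 was 30, against 2.21% of all genes tested. Without both replicates, a setting chosen after seeing the data, 54 of 74 tested members were lower in Anaef and 20 higher, 16 of the lower ones at an unadjusted p under 0.05, against 1.73% of all genes, and the median log2 fold change was -1.52.

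By family the tested members pointed the same way with few exceptions. In total RNA the filter was reached by 50 of the 75 in every WT library and by 3 in every Anaef library. The family counts therefore lean to members high in WT and are no separate support for a lower level. In family 1 all 49 tested members were lower in Anaef, 37 of them at an unadjusted p under 0.05, against 2.89% of all genes tested, with a median log2 fold change of -3.35. In family 2 there were 7 lower and 1 higher (median -4.24), in family 8 there were 4 lower (-2.90), and in family 9 there were 3 lower (-4.05). Family 14 had 3 lower and 1 higher (-1.11), and family 6 had 2 lower (-1.05). No member of families 4, 10, 11, 12, 13 or 15 was tested in total RNA.

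**Figure D5:**
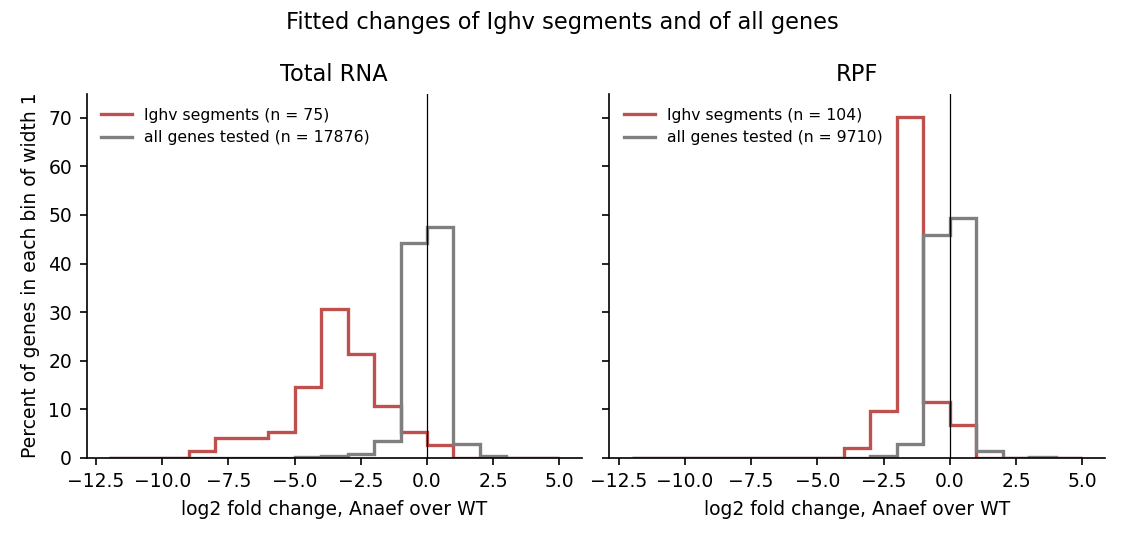
Distribution of the fitted log2 fold changes of Anaef over WT in bins of width 1, in total RNA (left panel) and RPF (right panel), for the Ighv segments tested (red) and all genes tested (grey), as percent of each set. The segments centre on -3.35 in total RNA and -1.28 in RPF, where 92.0% and 81.7% of them lie below -1, against 4.98% and 3.19% of all genes tested. Through the filter, the segments tested in total RNA lean to those high in WT.

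In RPF most tested segments also had a lower fitted level in Anaef, and no segment was called. Of the 140 members 104 were tested on the 4 pools with edgeR and 0 were called, as were 0% of all 9710 genes tested. Without adjustment 46 had p under 0.05 and a lower level in Anaef, 44.2% against 6.93% of all genes, and 0 a higher level, against 4.92%. Both Anaef pools lay below both WT pools in 64 of the 104 members, against 22.5% of all genes tested, and above in 0, against 22.3%. The median log2 fold change was -1.28 over these members and 0.01 over all genes tested. DESeq2 called 7 members, all lower in Anaef, against 2.03% of all genes, and limma-voom called 0, against 0%. The filter of 2.66 CPM in 2 pools was reached by 94 members in both Anaef pools and by 101 in both WT pools. It was reached by 3 in no Anaef pool, and for these the filter itself set the lower level in Anaef. Over all 140 members 102 had a lower and 9 a higher mean in Anaef, and 29 had no footprint count.

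The calls in RPF depended on the settings. With no filter on low counts 84 members were called, against 3.49% of all genes tested. Without Anaef 3B, which had the higher Ighv sum of the Anaef pools, 78 were called, against 2.09% of all genes, at a median of -2.39, and without WT 2B 1 was called, against 0.0100%. The other pools worked the other way. Without WT 1B 7 members were lower at an unadjusted p under 0.05, against 4.63% of all genes, and 2 higher, against 3.3%, at a median of -0.74. Without Anaef 4B 23 were lower, against 3.25%, and 1 higher, against 2.23%, at a median of -0.70. In a fit that pooled the spread over all 12 libraries 0 of 124 members had an unadjusted p under 0.05. In that fit 309 of all 19031 genes tested were lower and 249 higher at that level.

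Ighv1-49 had the smallest p. It had 5.74 and 6.28 CPM in Anaef 3B and 4B, against 40.6 and 23.6 CPM in WT 1B and 2B, or -2.43 as a log2 fold change (SE 0.35, adjusted p = 0.344 by edgeR). Other Ighv segments hold 6.17% of its 28-base windows and none of its 50-base windows. The next 4 were all of family 5 and shared 34.3% to 57.1% of their 28-base windows with other Ighv segments. Ighv5-9 had 14.9 and 5.93 CPM in Anaef and 55.7 and 29.6 CPM in WT (-2.01, SE 0.46), and Ighv5-6 had 15.8 and 8.37 CPM in Anaef and 54.5 and 27.4 CPM in WT (-1.76, SE 0.42). Ighv5-12 and Ighv5-4 had fold changes of -1.86 and -1.50, and all 4 had an adjusted p of 0.344 by edgeR. All 9 tested members of family 5 were lower in Anaef, 8 of them at an unadjusted p under 0.05, against 6.93% of all genes tested.

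Ighv1-72, Ighv1-81 and Ighv1-26 led the RPF pools. Ighv1-72 had 172 and 43.6 CPM in Anaef and 500 and 227 CPM in WT (-1.75, SE 0.63, adjusted p = 0.383 by edgeR). Ighv1-81 had 240.0 and 50.2 CPM in Anaef and 473 and 232 CPM in WT, so that Anaef 3B lay above WT 2B (-1.28, SE 0.66, adjusted p = 0.491). Ighv1-26, the leader in both Anaef pools, had 256 and 61.1 CPM in Anaef and 345 and 209 CPM in WT (-0.80, SE 0.59, adjusted p = 0.627). The largest fitted difference was that of Ighv13-2 (-3.91, SE 1.51, adjusted p = 0.400), which rested on WT 1B.

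The 7 tested segments with a level above WT came from families 2, 6, 7 and 11. Ighv11-2 had 19.5 and 6.63 CPM in Anaef and 13.3 and 2.67 CPM in WT (0.65, SE 0.73, adjusted p = 0.761 by edgeR), and Ighv11-1 had 11.8 and 4.88 CPM in Anaef and 9.15 and 1.46 CPM in WT (0.57, SE 0.76, adjusted p = 0.806). Ighv2-3 had 25.8 and 8.72 CPM in Anaef and 16.8 and 10.7 CPM in WT (0.33, SE 0.49, adjusted p = 0.836). In all 3 the pools of the genotypes overlapped. Ighv6-5, Ighv6-3 and Ighv7-2 had fold changes of 0.11, 0.08 and 0.07. Leaving out Anaef 3B turned the fold change of all 6 to negative values.

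Whether the genotype difference itself differed between assays was tested by the interaction of genotype and assay over all 12 libraries. Of 124 members tested 0 were called by edgeR, DESeq2 or limma-voom, as were 0%, 0.0531% and 0% of all genes. Of the 124, 35 had no count in at least 1 of the 4 groups and give no usable difference between the assays. Among the other 89, a subset chosen after seeing the data, 80 had a less negative difference in RPF than in total RNA by edgeR, 18 of them at an unadjusted p under 0.05, and 9 a more negative one, 0 of them at that level, against 1.59% and 1.76% of all 19031 genes. The count at that level over all 124 was 20, and it moved to 33 without Anaef total RNA replicate 5, against 1.82% of all genes, and to 4 without WT pool 2B, against 0.914%. The smallest p was that of Ighv1-19 (3.77, SE 1.01, unadjusted p = 0.00277), for which the changes set side by side were -4.70 in total RNA and -0.92 in RPF. The median over the 89 was 2.30, and that over all tested was 2.29 and ranged over 1.34 to 3.16 on leaving out single libraries. The pools were made of cells left from such preparations, and since the labels do not tie pools to samples, the fit treats the 12 libraries as independent.

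The coding annotation of a segment went with whether it had RPF counts. All 28 pseudogenes had no RPF count, while they took 2.80% to 7.76% of the Ighv counts in Anaef total RNA and 3.26% to 5.97% in WT total RNA. Ighv1-62 was the most counted of them, with 148 counts over the Anaef and 3334 over the WT total RNA libraries. This was not particular to the segments and is no finding about them. Of the 5283 rows without a coding annotation and with at least 100 total RNA counts, 5157 also had no RPF count. Whether the masking of the RPF columns set these zeros was not tested. Of the 112 coding members 111 had RPF counts, and Ighv1-13, at the threshold, had none. Conversely 8 coding members had RPF counts and none in total RNA. Ighv1-20 was the highest of these, with 134 and 40 counts in Anaef 3B and 4B and 473 and 160 in WT 1B and 2B.

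Position along the locus was described in 4 blocks of 35 members each, ordered from the constant region end. The block farthest from the constant regions, at 115294062 to 116000461 and holding families 1 and 8, had 23.8% to 56.5% of the Ighv counts in Anaef total RNA and 36.3% to 48.04% in WT. In RPF it had 39.9% to 41.5% in Anaef and 39.7% to 44.8% in WT. The block next to the constant regions, at 113572927 to 114141122 and holding families 2, 3, 4, 5, 7, 9, 11 and 14, had 3.99% to 57.7% in Anaef total RNA and 5.41% to 39.4% in WT, against 10.4% to 13.6% in Anaef RPF and 9.80% to 13.9% in WT RPF. Both ends were in use in every library, and the total RNA libraries varied most at the near end.

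The genes that work with the V segments were described from lists. Of the 7 heavy chain constant regions tested in total RNA, 6 were lower in Anaef and 1 was called, against 0.0224% of all genes tested. Igha, the constant region of IgA, fell to a mean of 76.2 CPM in Anaef, against 301 CPM in WT (-1.98, SE 0.22, adjusted p = 0.0268 by edgeR). Ighg2b and Ighg2c, of IgG subclasses, had log2 fold changes of -3.82 (SE 0.74) and -3.28 (SE 0.97) and did not pass. Ighm, of IgM, stood at a mean of 1053 CPM in Anaef and 746 CPM in WT (0.50, SE 0.19, adjusted p = 0.840), the only heavy chain constant region above WT. In RPF all 8 were lower and 0 called, as were 0% of all genes tested, from -0.42 for Ighm to -3.27 for Ighg2c.

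The other antibody genes showed sizes near those of the V segments. All 4 light chain constant regions were lower at an unadjusted p under 0.05 in both assays, against 2.89% of all genes in total RNA and 6.93% in RPF. Their medians were -3.02 and -1.61, and 0 were called, against 0.0224% and 0% of all genes. The 4 J segments tested of 24 D and J segments were all lower, with medians of -3.25 and -1.94. Igkv, the variable segments of the kappa light chain, had 66 members tested in total RNA with 3 called, against 0.0224% of all genes, and a median of -3.22. In RPF 96 were tested with 0 called, against 0% of all genes, and a median of -1.31. The variable segments of the T cell receptor, made by the T cells themselves, behaved differently. The 114 Trav segments tested had a median of 0.09 in total RNA. At an unadjusted p under 0.05, 0 were lower and 2 higher, against 2.89% and 2.73% of all genes. The 106 tested in RPF had a median of 0.37, with 0 lower and 24 higher at that level, against 6.93% and 4.92%. Both Anaef pools lay above both WT pools in 66 of them and below in 2, against 22.3% and 22.5% of all genes.

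Genes of V segment recombination were near the limit of detection. Rag1 and Rag2, the recombinase, averaged at most 0.100 CPM in either genotype in total RNA and Igll1, of the surrogate light chain, had no count there. Of the 8 genes listed 3 were tested in total RNA, and 0 were called, against 0.0224% of all genes. Dntt, the terminal transferase that adds bases at the joints, averaged 9.60 CPM in Anaef and 3.71 CPM in WT (1.36, SE 0.36, adjusted p = 0.594 by edgeR). Among 10 genes of antibody assembly and secretion 8 were lower and 2 higher in Anaef total RNA, at a median of -0.37, and 0 were called, against 0.0224% of all genes. Mzb1, a chaperone of antibody assembly, had the largest of these differences at a mean of 0.0300 CPM in Anaef and 1.51 CPM in WT (-5.27, SE 1.06, adjusted p = 0.298 by edgeR). It reached the filter on low counts in no Anaef library, at most 0.09 CPM, and was tested through its WT levels alone. Next came Derl3, of endoplasmic reticulum quality control (-3.07, SE 1.04), and Jchain, which links IgA and IgM units (-1.81, SE 0.39). Hspa5, Pdia4 and Edem1, secretory genes that all cells use, had values of -0.25, -0.01 and 0.23. In RPF 9 of the 10 were tested, 8 lower and 1 higher, at a median of -0.39. Of the lower ones 4 had an unadjusted p under 0.05, against 6.93% of all genes, and 0 were called, against 0%.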

How the data were processed

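The authors deposited one table of whole-number read counts per gene for total RNA-seq of 8 libraries and RPF sequencing of 4 pools, with a column of each library. Reads were handled with TopHat 1.4.1 and the GRCm38 build, per the submitters' processing notes. The sources used here do not give how reads that fit several segments were counted or what was masked in the RPF columns. Rows that join several gene IDs (263) held no Ighv segment. Of all rows, 44595 IDs matched the GENCODE annotation.

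CPM used TMM-scaled library sizes, set within total RNA and within RPF, so levels are not compared across the assays. Genes were kept by edgeR's filterByExpr, and Anaef was compared with WT by the quasi-likelihood F test of edgeR 4.0.16 (R 4.3.3) with Benjamini-Hochberg adjustment over all genes tested, at adjusted p under 0.05, on the 8 total RNA libraries, the 4 RPF pools, and all 12 for the interaction of genotype and assay. The test was checked on simulated data with the same spread set for every gene. That check does not cover genes as uneven between libraries as these segments. Alternatives were DESeq2 1.42.0, limma-voom (limma 3.58.1), other scalings and filters, a joint fit, leaving out each library, and, chosen after seeing the data, leaving out WT replicates 1 and 2 together, counting near-copies once, and coding members only. Shares of counts have exact Clopper-Pearson intervals at 95%. With 2 pools against 2 an exact permutation test of a single value cannot go below p = 0.333.

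The members and lists were chosen with earlier results of these data known. Named segments were the 12 with the most counts, the leader of each library and of each family with 3 or more members, the 5 of smallest p per direction and assay, any called member, and those next to the threshold.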

Additional observations from a re-analysis of the deposited data

Results flagged for a closer look

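Of the 18 groups of 4 total RNA libraries in which the most distant library was compared with its neighbours by Dixon's ratio, 3 had a library beyond the 95% limit, and chance gives about 1 in 20. All 3 were in Anaef. The share of all counts held by the Ighv segments was 0.0280% in Anaef replicate 5, against 0.00507% to 0.00839% in Anaef replicates 6 to 8. Family 2 held 19.1% of the Ighv counts in Anaef replicate 7, against 0.470% to 3.35% in the other Anaef libraries. Family 5 held 1.52% in Anaef replicate 7, against 0% to 0.230% in the others.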

How the results depend on the processing

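Among the main values of the 3 comparisons 169 alternatives left the direction and the side of the threshold as reported. In total RNA DESeq2 called 15 members, leaving out each library gave 0 to 1 called, and without WT replicates 1 and 2 together the median log2 fold change was -1.515. In RPF 84 members were called with no filter and 7 by DESeq2, and leaving out each pool gave 0 to 78 called and medians of -2.392 to -0.7013. The cause of these differences was not tested. DESeq2 and limma-voom moved the interaction's median over all genes to 0.315 and 0.358.

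Some segments turned direction. With limma-voom Ighv2-9 stood at -1.305 in total RNA, and Ighv7-2, Ighv6-3 and Ighv6-5 at -0.02106, -0.1152 and -0.1524 in RPF. Without WT replicates 1 and 2 together, in total RNA, Ighv9-3 stood at 0.8955, Ighv7-3 at 2.021, Ighv3-6 at 0.1763, Ighv6-5 at 0.2627, Ighv1-52 at 1.736, Ighv1-55 at 0.1905 and Ighv1-64 at 0.7425. Leaving out each library in turn gave ranges in total RNA of -4.177 to 1.215 for Ighv2-9, -4.922 to 0.6961 for Ighv1-52 and -1.956 to 0.1204 for Ighv6-3. In RPF the ranges were -0.6754 to 0.879 for Ighv2-3, -0.9297 to 0.8598 for Ighv7-2, -0.2068 to 2.496 for Ighv11-1, -0.3368 to 2.287 for Ighv11-2, -1.452 to 1.179 for Ighv6-3, -1.391 to 0.7668 for Ighv6-5 and -1.498 to 0.06414 for Ighv2-9. Of the alternatives for single segments 882 kept the call, 68 passed it, 20 moved and 30 reversed.

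Adding joined rows gave no value, since none held an Ighv segment. No paired analysis was possible because the groups compared share no replicate numbers, and the labels do not say which samples each pool joins. Low counts left 65 members untested in total RNA and 36 in RPF, where 29 had no footprint count, 28 of them pseudogenes.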
